A study of Mus musculus with 9 samples.

Results

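Cornified envelope genes of surface epithelium were followed in mouse eye tissue as a set of 10 genes, taken by symbol from the 54532 genes of the deposited table: Sprr1a, Sprr1b, Sprr2d, Sprr2f, Sprr2h, Sprr3, Ivl, Tgm1, Cnfn and Asprv1. They were selected on their FPKM in these same 9 libraries, across all 3 groups, so their own values are given as a description, with no test. The libraries came from choroidal-retinal flat mounts of C57BL/6 mice, 3 per group in 3 groups. The BetP-Gel@Ran group is dated 3 months after intravitreal injection of a gel, and its treatment label names the gel BetP-Gel without ranibizumab, the antibody against vascular endothelial growth factor that the series title names. Whether these mice also carried neovascular lesions is not stated in the labels. The CNV group, titled wet-AMD, models choroidal neovascularization, the growth of vessels under the retina in wet age-related macular degeneration, and the labels do not record how or when it was induced. The untreated group received nothing that the labels record. Ages are not given, and no label says whether replicates were separate animals, so every error and p-value below measures the spread between libraries.

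The cornified envelope is the cross-linked protein shell that replaces the plasma membrane of the outermost cells of squamous epithelium. Its precursors, such as involucrin and the small proline-rich proteins, are joined by transglutaminases and carry a lipid layer on the outside. The cornea and conjunctiva are stratified but normally do not cornify, while epidermis does, and small proline-rich genes are known to be induced in the ocular surface under stress. In bulk tissue, fewer cells of a type and less RNA per cell cannot be told apart.

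Levels are FPKM, read numbers divided by gene length and a library size. In the deposited values that size was not the recovered read total. It was 19813498 in CNV replicate 1, which held 18753737 recovered reads, and 16141701 in untreated replicate 3, which held 17055610. The 9 libraries held 16990118 to 18753737 recovered reads and 13164 to 13481 genes at 1 FPKM or more. Although the tissue is labelled choroidal-retinal, 16 corneal epithelium markers led by Krt12, Aldh3a1 and Krt5 summed to 19509 to 23195 FPKM in BetP-Gel@Ran libraries, 12741 to 16276 FPKM in CNV libraries and 23723 to 27888 FPKM in untreated libraries. The 10 markers of retina and pigment epithelium, such as Rpe65, summed to 1695 to 2087, 1355 to 1490 and 3016 to 4041 FPKM in the same order of groups. The 7 markers of choroid endothelium, all detected, summed to 13.97 to 19.6, 10.2 to 13.0 and 12.6 to 14.7 FPKM. The 10 markers of conjunctiva summed to 1335 to 1817, 1595 to 2650 and 2141 to 2215 FPKM, with the goblet cell gene Tff1 at 0 in all but 1 library. Lens markers, 14 in all, summed to 1384 to 4859, 109 to 219 and 1025 to 18526 FPKM, the last in untreated replicate 3.

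BetP-Gel@Ran replicate 3 stood apart from its group in epidermal genes. The 12 epidermis markers summed to 192 FPKM in that library, against 23.6 and 11.3 FPKM in the other BetP-Gel@Ran libraries, 29.4, 48.6 and 16.1 FPKM in CNV libraries and 57.5, 14.1 and 10.9 FPKM in untreated libraries. Its sum was 3.35 times the next highest, and 10 of the 12 markers were highest there. The suprabasal keratins Krt1 and Krt10 reached 22.2 and 40.5 FPKM, the envelope protein loricrin (Lor) 25.8 FPKM and the epidermal calcium-binding protein Calm4 60.9 FPKM, while filaggrin (Flg) was at 0.638 FPKM and Krt2 at 0. Hair follicle markers, 9 of 10 of which were analysed here, summed to 1.65 FPKM in that library and were highest in untreated replicate 1, at 7.78 FPKM. Differences that involve BetP-Gel@Ran are therefore also given without replicate 3, and the part of epidermal cells in them was not tested.

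Of the members, 7 lie together on chromosome 3 (mm10), within 234.6 kb of the epidermal gene cluster between positions 92339140 and 92573735. Tgm1 lies on chromosome 14 at 55700009 to 55713926, Cnfn on chromosome 7 at 25367620 to 25369724 and Asprv1 on chromosome 6 at 86628164 to 86629710. The promoters below, from RefSeq on GRCm38.p6, run from 250 bases before to 50 bases after the transcription start, 5′ to 3′ on the gene's strand. They are shown because the 3 Sprr2 members, which belong to one gene family, differed in which libraries they were high, and because Sprr1a and Ivl moved with Sprr2f while Asprv1 did not. Capitals mark TGAGTCA on either strand (TGACTCA on the opposite one), the letters bound by AP-1 factors such as Fosl1 and Jun, and ATTTGCAT on either strand, the octamer motif, which was noticed on reading the sequences. The marked motifs do not overlap.
Sprr2f, chr3:92364937-92365236, plus strand: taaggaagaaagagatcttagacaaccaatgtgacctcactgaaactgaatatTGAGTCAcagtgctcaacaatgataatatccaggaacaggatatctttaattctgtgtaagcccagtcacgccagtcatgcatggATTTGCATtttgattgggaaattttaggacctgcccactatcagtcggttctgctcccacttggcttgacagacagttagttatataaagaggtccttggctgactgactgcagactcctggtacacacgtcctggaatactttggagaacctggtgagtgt
Sprr2d, chr3:92338890-92339189, plus strand: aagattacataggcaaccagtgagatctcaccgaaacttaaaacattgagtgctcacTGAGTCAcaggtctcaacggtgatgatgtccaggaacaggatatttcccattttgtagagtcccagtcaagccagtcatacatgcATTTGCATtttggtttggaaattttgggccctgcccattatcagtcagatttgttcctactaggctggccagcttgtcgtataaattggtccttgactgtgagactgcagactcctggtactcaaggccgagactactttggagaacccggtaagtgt
Sprr2h, chr3:92385435-92385734, plus strand: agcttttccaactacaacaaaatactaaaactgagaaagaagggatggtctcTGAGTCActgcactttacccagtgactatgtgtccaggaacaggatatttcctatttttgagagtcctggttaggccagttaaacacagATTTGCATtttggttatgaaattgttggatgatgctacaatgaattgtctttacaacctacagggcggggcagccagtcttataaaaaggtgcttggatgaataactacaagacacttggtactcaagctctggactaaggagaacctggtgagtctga
Sprr1a, chr3:92485832-92486131, minus strand: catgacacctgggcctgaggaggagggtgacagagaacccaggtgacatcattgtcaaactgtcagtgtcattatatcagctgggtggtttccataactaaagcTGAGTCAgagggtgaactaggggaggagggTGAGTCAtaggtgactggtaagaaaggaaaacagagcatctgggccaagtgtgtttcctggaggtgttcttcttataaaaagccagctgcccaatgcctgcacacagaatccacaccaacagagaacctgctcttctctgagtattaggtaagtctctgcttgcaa
Ivl, chr3:92573686-92573985, minus strand: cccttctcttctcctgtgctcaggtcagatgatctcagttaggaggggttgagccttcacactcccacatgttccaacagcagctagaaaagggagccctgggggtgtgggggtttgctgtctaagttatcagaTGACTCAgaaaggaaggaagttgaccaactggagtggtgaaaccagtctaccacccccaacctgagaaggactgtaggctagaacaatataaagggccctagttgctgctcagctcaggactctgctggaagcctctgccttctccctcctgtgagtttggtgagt
Asprv1, chr6:86627924-86628223, plus strand: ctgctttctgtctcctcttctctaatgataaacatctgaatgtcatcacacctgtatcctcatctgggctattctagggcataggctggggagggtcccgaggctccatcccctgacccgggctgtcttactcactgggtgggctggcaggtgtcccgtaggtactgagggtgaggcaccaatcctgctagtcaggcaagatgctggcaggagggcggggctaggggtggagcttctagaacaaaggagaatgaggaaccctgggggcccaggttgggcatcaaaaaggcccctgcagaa

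TGAGTCA occurred in the windows of 5 of the 10 members, against 5.20% of 32851 promoter windows. It stood 197, 193 and 198 bases before the start in Sprr2f, Sprr2d and Sprr2h, at 146 and 116 bases in Sprr1a, and at 116 bases on the opposite strand in Ivl. ATTTGCAT occurred in the 3 Sprr2 members, 112, 108 and 109 bases before the start, against 1.74% of windows. TATAAA, searched on the gene's strand and not capitalised, occurred in 7 of the 10 members, those on chromosome 3, against 8.32% of windows. In a global alignment the Sprr2f window was 72.2% identical to that of Sprr2d and 59.9% identical to that of Sprr2h, against 46.4% for Sprr1a and 47.4% for Sprr3. Motif and shared variation did not line up throughout. Sprr1b, whose window is not shown, lacked TGAGTCA but had a Pearson's r of 0.87 with Sprr1a and 0.80 with Sprr2f over the 9 libraries. Sprr2d held TGAGTCA and was at 0.62 with Sprr2f. These matches describe letters in a window and show no binding, and their part in the levels was not tested. The Asprv1 window held none of the 3 motifs, which says nothing of the factors that act on it.

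Among the members, Sprr2f and Sprr1a had the largest log2 differences between CNV and untreated libraries. Sprr2f, an envelope precursor, was at 0.469, 0.182 and 7.44 FPKM in BetP-Gel@Ran replicates 1, 2 and 3, at 77.7, 80.3 and 21.6 FPKM in CNV replicates and at 1.55, 0.925 and 1.12 FPKM in untreated replicates. All 3 CNV libraries were above every other library, and the BetP-Gel@Ran libraries lay on both sides of the untreated ones. Its mean was 59.9 ± 33.2 FPKM in CNV and 1.20 ± 0.319 FPKM in untreated libraries (SD, n = 3 each), a ratio of means of 50.005. On the log2(FPKM + 1) scale, which understates changes of low genes, the difference was 4.59 ± 0.79 for CNV against untreated, -4.42 ± 0.79 for BetP-Gel@Ran against CNV and 0.17 ± 0.79 for BetP-Gel@Ran against untreated (SE of the fit over 9 libraries). Without BetP-Gel@Ran replicate 3 the difference from CNV was -5.32, and that from untreated was -0.73, a change of sign. The reads behind these values were 5, 2 and 77 in BetP-Gel@Ran, 938, 858 and 245 in CNV and 16, 10 and 11 in untreated libraries.

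Sprr1a, another small proline-rich precursor and the most abundant of the 6, was at 13.0, 7.97 and 94.1 FPKM in BetP-Gel@Ran, 286, 229 and 75.4 FPKM in CNV and 21.9, 31.2 and 13.3 FPKM in untreated libraries. CNV and untreated libraries did not overlap, whereas BetP-Gel@Ran replicate 3 lay above CNV replicate 3. The other BetP-Gel@Ran libraries lay below every untreated one on the deposited FPKM, replicate 1 by a thin margin. That library had 183 reads of 17411457, and untreated replicate 3 had 173 of 17055610. Relative to recovered totals their order was reversed. CNV averaged 197 ± 109 FPKM and untreated 22.1 ± 8.97 FPKM (SD, n = 3 each), a ratio of 8.90. The log2 difference was 2.97 ± 0.90 for CNV against untreated and -2.91 ± 0.90 for BetP-Gel@Ran against CNV. Without BetP-Gel@Ran replicate 3 the difference from CNV was -3.94, and that from untreated was -0.97 in place of 0.06, a change of sign.

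A second pattern was led by BetP-Gel@Ran replicate 3. Sprr3 was at 0, 0 and 19.6 FPKM in BetP-Gel@Ran, at 1.61, 2.10 and 0.219 FPKM in CNV and at 0, 0.0461 and 0 FPKM in untreated libraries. Of its 496 reads, 406 came from BetP-Gel@Ran replicate 3, 89 from the CNV libraries and 1 from an untreated library. CNV lay above untreated in every library, but by 5 reads against 1 at the closest. Sprr2d was at 0.251, 0.0813 and 20.2 FPKM in BetP-Gel@Ran, 1.93, 15.5 and 0.945 FPKM in CNV and 0.606, 0.579 and 0.455 FPKM in untreated libraries. BetP-Gel@Ran replicate 3 and CNV replicate 2 thus stood above the other 7 libraries, and again no CNV library overlapped the untreated range.

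Sprr2h, a further small proline-rich gene, was at 0, 0.0737 and 2.74 FPKM in BetP-Gel@Ran, 0.872, 1.89 and 0.285 FPKM in CNV and 0.313, 0.0749 and 0 FPKM in untreated libraries. It did not pass the filter of 1 FPKM in 3 libraries and rested on 83 reads in all. Sprr1b was at 0, 0 and 6.45 FPKM in BetP-Gel@Ran, 12.7, 4.74 and 0.258 FPKM in CNV and 0.568, 0 and 0 FPKM in untreated libraries. For both genes CNV and untreated ranges overlapped. A library with 0 reads of a member still allowed up to 0.136 to 0.247 FPKM at this depth, the value of 3 reads, for counting error only.

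Differences of these 4 genes are on the log2(FPKM + 1) scale, with the SE of the fit. For CNV against untreated they were 1.08 ± 1.10 for Sprr3, 1.56 ± 1.22 for Sprr2d, 0.77 ± 0.49 for Sprr2h (in a fit with no filter) and 1.99 ± 1.02 for Sprr1b. Between BetP-Gel@Ran and CNV, Sprr3 differed by 0.35 ± 1.10 with all libraries and by -1.10 without BetP-Gel@Ran replicate 3, a change of sign. Sprr2d differed by -0.57 ± 1.22 and, without that library, by -1.97. Sprr2h differed by -0.26 ± 0.49 and -0.88, and Sprr1b by -1.24 ± 1.02 and -2.21, with and without it. Against untreated libraries the BetP-Gel@Ran differences with all libraries were 1.43 ± 1.10 for Sprr3, 0.99 ± 1.22 for Sprr2d, 0.50 ± 0.49 for Sprr2h and 0.75 ± 1.02 for Sprr1b. Without BetP-Gel@Ran replicate 3 they were -0.02, -0.41, -0.11 and -0.22 in that order of genes, so all 4 changed sign.

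**Figure D1:**
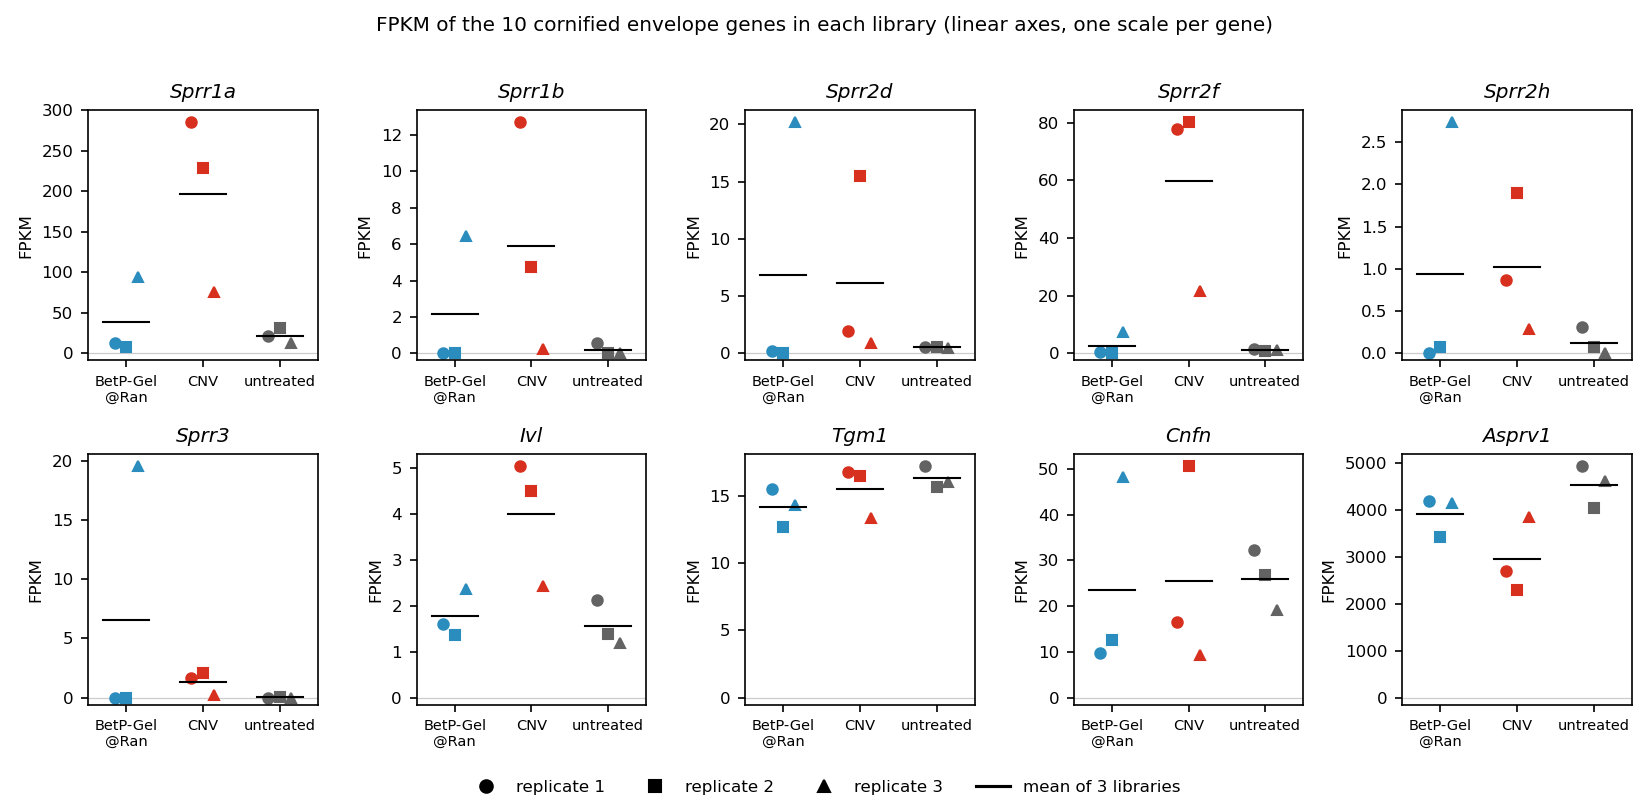
FPKM of each member in each library on linear axes, with BetP-Gel@Ran, CNV and untreated from left to right, one symbol per replicate and a line at the mean of 3 libraries. Sprr2f was 21.6 to 80.3 FPKM in CNV libraries and below 8 FPKM in the other 6, while Sprr3 was above 3 FPKM only in BetP-Gel@Ran replicate 3, at 19.6 FPKM.

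The mix of small proline-rich transcripts differed between the libraries where they were high. The 6 Sprr members summed to 13.7, 8.31 and 150.5 FPKM in BetP-Gel@Ran, 381, 334 and 98.7 FPKM in CNV and 24.9, 32.9 and 14.9 FPKM in untreated libraries. Sprr2f made up 3.43%, 2.19% and 4.95% of that sum in BetP-Gel@Ran, 20.4%, 24.1% and 21.9% in CNV and 6.22%, 2.81% and 7.52% in untreated libraries. Every CNV library thus had a larger Sprr2f share than every other library, whatever its total. In BetP-Gel@Ran replicate 3, Sprr3 and Sprr2d took 13.0% and 13.4% of the sum, whereas in CNV libraries Sprr3 took 0.222% to 0.629% and Sprr2d 0.506% to 4.64%.

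The reads recovered from the same FPKM give the counting error of the mix for the neighbouring Sprr2f and Sprr2d genes. Of reads on either gene, Sprr2f held 24.8% in BetP-Gel@Ran replicate 3 (95% Wilson interval 20.3 to 29.8, 311 reads). In CNV libraries it held 97.3% (96.1 to 98.2, 964 reads), 82.3% (79.8 to 84.5, 1043 reads) and 95.3% (92.0 to 97.3, 257 reads). Untreated libraries held 69.6% (49.1 to 84.4), 58.8% (36.0 to 78.4) and 68.8% (44.4 to 85.8), on 16 to 23 reads each. The other BetP-Gel@Ran libraries had 8 and 3 such reads, too few to place. The intervals cover counting error only, and reads shared by near-identical Sprr2 copies could have been assigned to either gene.

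**Figure D2:**
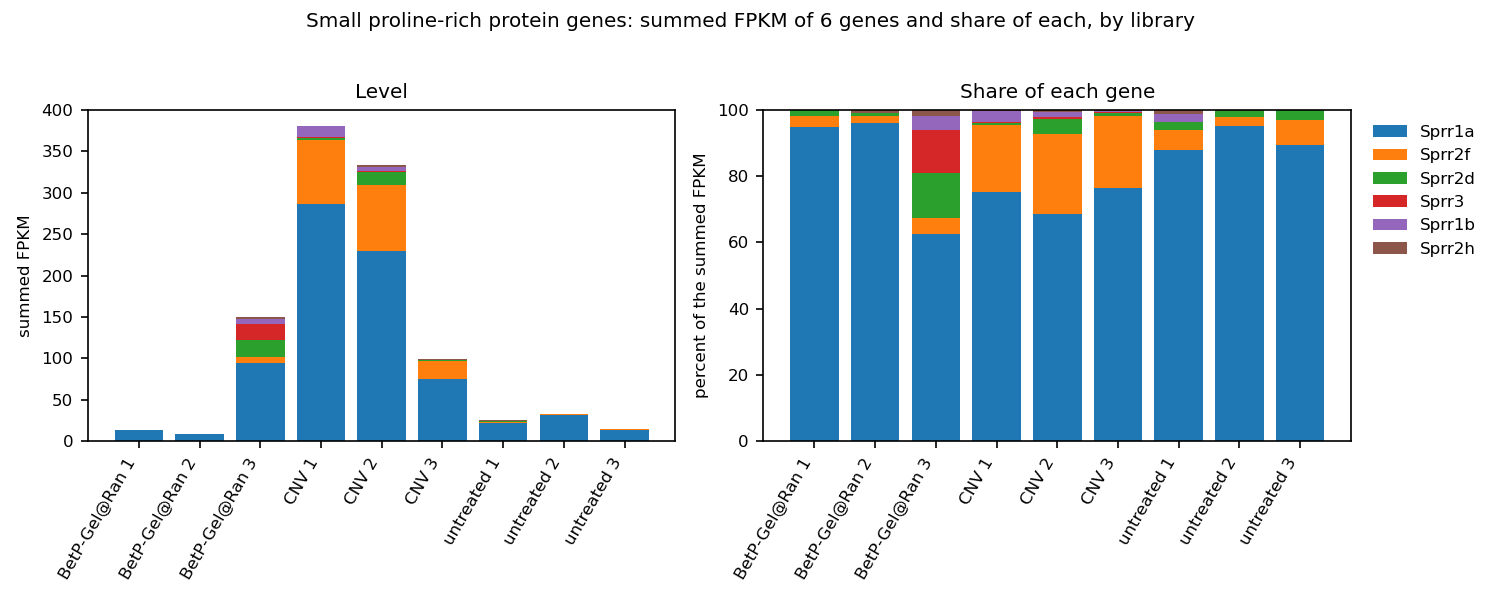
Left, summed FPKM of the 6 Sprr members in each library, and right, the percent of that sum from each gene, with BetP-Gel@Ran, CNV and untreated libraries from left to right. Sprr2f (orange) took 20.4% to 24.1% in CNV libraries, and Sprr2d (green) with Sprr3 (red) took 13.4% and 13.0% in BetP-Gel@Ran replicate 3.

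Involucrin (Ivl), an early scaffold of the envelope, was low but higher in CNV. It was at 1.60, 1.35 and 2.36 FPKM in BetP-Gel@Ran, 5.04, 4.51 and 2.43 FPKM in CNV and 2.12, 1.38 and 1.19 FPKM in untreated libraries. The CNV libraries lay above all others, although CNV replicate 3 was above BetP-Gel@Ran replicate 3 by only a small margin. The log2 difference was 0.94 ± 0.23 for CNV against untreated, -0.82 ± 0.23 for BetP-Gel@Ran against CNV and 0.11 ± 0.23 for BetP-Gel@Ran against untreated. Without BetP-Gel@Ran replicate 3 the last 2 were -0.97 and -0.03, so the difference from untreated changed sign.

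Tgm1, the membrane-bound transglutaminase that cross-links the precursors, hardly varied. It was at 15.5, 12.7 and 14.4 FPKM in BetP-Gel@Ran, 16.8, 16.5 and 13.3 FPKM in CNV and 17.2, 15.7 and 16.03 FPKM in untreated libraries. The CNV libraries overlapped both other groups, while the BetP-Gel@Ran libraries all lay below the untreated ones on the deposited FPKM. BetP-Gel@Ran replicate 1 had 860 reads of 17411457, and untreated replicate 3 had 818 of 17055610. Relative to recovered totals these 2 groups therefore overlapped. Its log2 difference was -0.07 ± 0.10 for CNV against untreated, which became 0.02 when each library was scaled to its own total, and -0.19 ± 0.10 for BetP-Gel@Ran against untreated. Between BetP-Gel@Ran and CNV it was -0.12 ± 0.10, and without BetP-Gel@Ran replicate 3 the differences from CNV and from untreated were -0.13 and -0.20.

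Cnfn, which encodes cornifelin, a component of the envelope, was at 9.76, 12.6 and 48.1 FPKM in BetP-Gel@Ran, 16.6, 50.6 and 9.32 FPKM in CNV and 32.2, 26.7 and 19.0 FPKM in untreated libraries. The same libraries as for Sprr2d were highest, BetP-Gel@Ran replicate 3 and CNV replicate 2, and all groups overlapped. Unlike Sprr2d, Cnfn was higher in untreated libraries than in the remaining ones. Its log2 difference of -0.33 ± 0.72 for CNV against untreated was smaller than its error. BetP-Gel@Ran differed from CNV by -0.13 ± 0.72 and from untreated by -0.45 ± 0.72, and by -0.80 and -1.12 without replicate 3.

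Asprv1, an aspartic protease of the upper epithelium known to process filaggrin in mouse epidermis, was the most abundant member by far and went the other way. It was at 4200, 3422 and 4138 FPKM in BetP-Gel@Ran, 2702, 2290 and 3846 FPKM in CNV and 4938, 4035 and 4626 FPKM in untreated libraries. Every CNV library was below every untreated one, and BetP-Gel@Ran overlapped both. By mean FPKM it ranked 11 of all genes in BetP-Gel@Ran, 13 in CNV and 9 in untreated libraries. The log2 difference was -0.65 ± 0.18 for CNV against untreated, which quantile normalization moved to -0.31, and 0.44 ± 0.18 for BetP-Gel@Ran against CNV. BetP-Gel@Ran differed from untreated by -0.21 ± 0.18, and without its replicate 3 the differences from CNV and from untreated were 0.40 and -0.25. Of the 16 corneal markers, 11 had a lower mean in CNV than in untreated libraries, among them Krt12 at 1391, 1383 and 2246 FPKM in CNV against 5313, 4319 and 4399 FPKM in untreated libraries. The other 5, Krt14, Psca, Elf3, Ehf and Trp63, had a higher mean in CNV, with Krt14 at 1558 ± 891 FPKM against 295 ± 18.7 FPKM and Trp63 at 8.67 ± 0.695 FPKM against 8.66 ± 1.04 FPKM in untreated libraries (SD, n = 3 each). Their part in the Asprv1 values was not tested.

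By mean level per length, Asprv1 was the highest member in each group. Sprr1a followed in BetP-Gel@Ran at 38.3 ± 48.3 FPKM and in CNV at 197 ± 109 FPKM, and Cnfn followed in untreated libraries at 26.0 ± 6.61 FPKM, where Sprr1a at 22.1 ± 8.97 FPKM did not differ from it beyond their spread (SD, n = 3). Sprr2f came next after Sprr1a in CNV and only after 6 other members in BetP-Gel@Ran, where Tgm1 at 14.2 ± 1.41 FPKM overlapped the ranges of Sprr1a and Cnfn. The lowest places were taken by Sprr2h in BetP-Gel@Ran and CNV and by Sprr3 in untreated libraries, at 0.0154 ± 0.0266 FPKM.

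Over all 10 members, CNV and untreated libraries did not overlap for 5 that were higher in CNV, namely Sprr1a, Sprr2d, Sprr2f, Sprr3 and Ivl, and for Asprv1, which was lower. Among the 14086 genes tested, 27.7% were higher and 26.7% lower in CNV without overlap. Since levels in these groups were known when the members were chosen, nothing is read from that contrast. Leaving out CNV replicate 3 or untreated replicate 1 gave 7 in place of 5, adding Sprr1b and Sprr2h, against 33% and 30.7% of tested genes. Leaving out CNV replicate 2 added Cnfn to Asprv1, against 29.8% of tested genes lower. Between BetP-Gel@Ran and CNV, 0 members were higher without overlap, against 18.3% of tested genes, and 2, Sprr2f and Ivl, were lower, against 18.6%. Without BetP-Gel@Ran replicate 3, 7 were lower, namely the 6 Sprr members and Ivl, against 22.1% of tested genes. For Sprr1b, Sprr2h and Sprr3 this rested on 4, 4 and 5 reads in CNV replicate 3. BetP-Gel@Ran replicates 1 and 2 had 0 or 1 reads of these genes. Sprr2h was not among the tested genes. Without CNV replicate 3, Sprr1a, Sprr2f, Ivl and Tgm1 were lower, against 27.8%, and Asprv1 was higher, against 27%. Asprv1 was also higher without BetP-Gel@Ran replicate 2, against 22.8%. Between BetP-Gel@Ran and untreated, 0 members were higher, against 25.3%. Tgm1 was lower on the deposited FPKM, though not relative to recovered totals, against 25.4%. Without BetP-Gel@Ran replicate 3, Sprr1a, Sprr2d, Sprr2f, Tgm1 and Cnfn were lower on the deposited FPKM, against 27.9%. Relative to recovered totals Sprr1a and Tgm1 overlapped there too. Without untreated replicate 2 Asprv1 joined Tgm1, against 29.3%. The median log2 difference over the members was 1.01, -0.42 and 0.14 in the 3 comparisons in that order, and between -0.01 and 0.01 over all tested genes. For BetP-Gel@Ran against CNV it became -1.04 without BetP-Gel@Ran replicate 3. With lens markers as a covariate it became 0.16, a change of sign, but that covariate follows these groups and cannot be told apart from them. For BetP-Gel@Ran against untreated it became -0.23 without that library, also a change of sign.

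Most members other than Tgm1 and Asprv1 varied together across the 9 libraries, to different degrees. Pearson's r on log2 levels was 0.96 between Sprr2f and Sprr1a and 0.95 between Sprr2f and Ivl. It was 0.97 between Sprr2d and Sprr2h and 0.90 between Sprr2d and Sprr3, with 0.76 between Sprr2h and Sprr1a, 0.72 between Sprr2d and Sprr1a, 0.62 between Sprr2d and Sprr2f and 0.45 between Sprr3 and Sprr2f. Sprr1b was at 0.87 with Sprr1a and with Ivl, 0.85 with Sprr2h and 0.76 with Sprr3. Cnfn was at 0.76 with Sprr2d, 0.72 with Sprr2h and 0.61 with Sprr3. It was only at 0.41 with Sprr1a, 0.31 with Ivl and 0.26 with Sprr2f, near its 0.43 with Tgm1. Asprv1 ran opposite to Ivl, at -0.78. These values describe 9 libraries in 3 groups and carry no test.

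**Figure D3:**
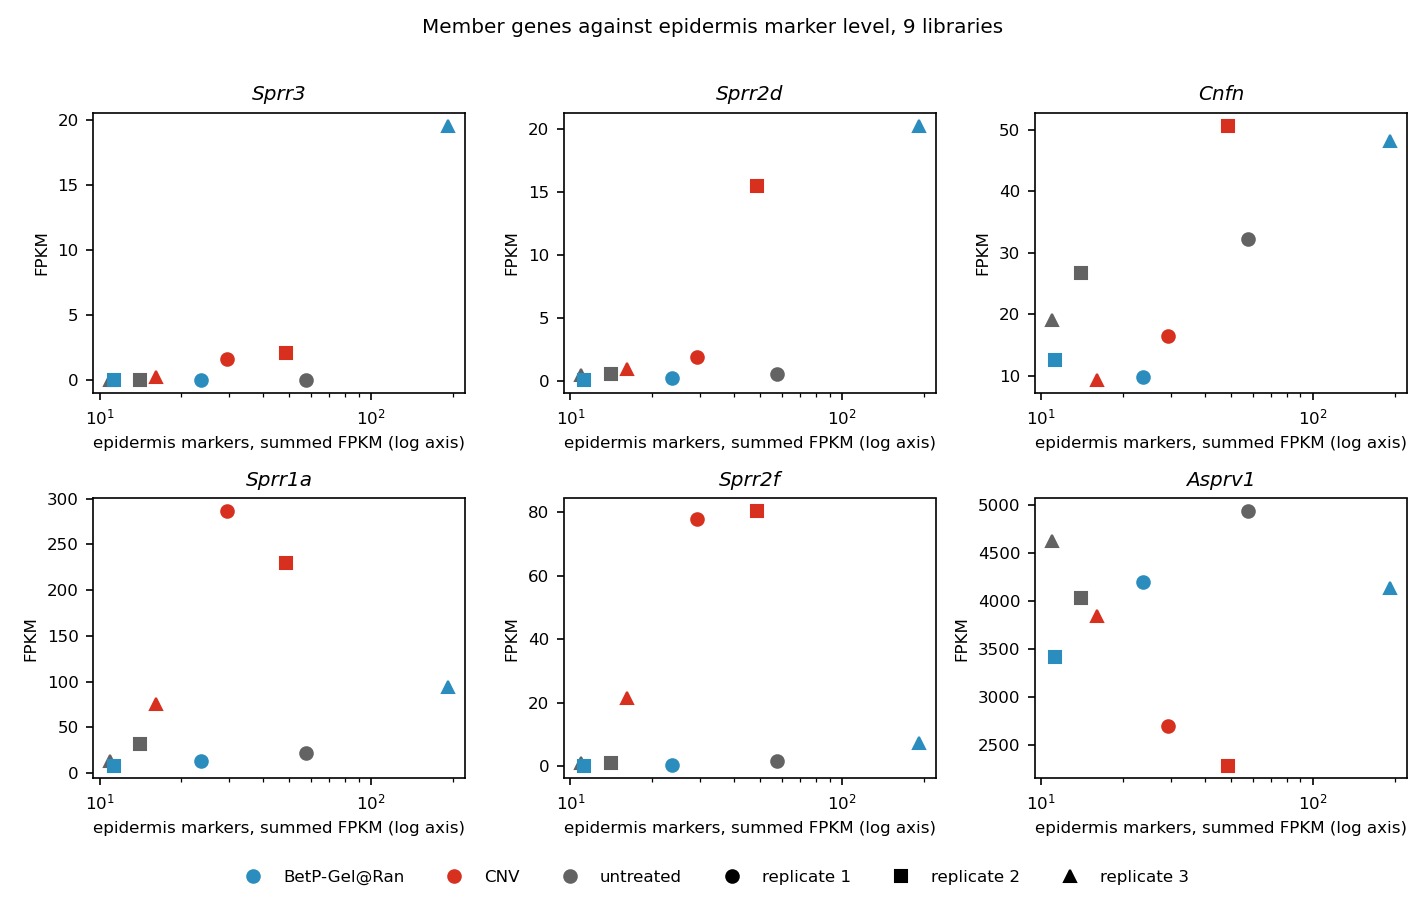
FPKM of 6 members (linear axes) against the summed FPKM of 12 epidermis markers (log axes) in each of 9 libraries, with BetP-Gel@Ran in blue, CNV in red and untreated in grey. Sprr3 and Sprr2d were highest in the library with the highest sum, 192 FPKM, while Sprr1a and Sprr2f were highest in CNV libraries with sums of 29.4 and 48.6 FPKM.

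Within BetP-Gel@Ran, 8 of the 10 members were highest in replicate 3, the library with the highest epidermis marker sum, Sprr2f and Sprr1a among them. The other 2 were Tgm1 and Asprv1. Untreated replicate 1 had the second highest sum, 57.5 FPKM, with Sprr2f at 1.55 FPKM and Sprr3 at 0. Within the untreated group, Sprr1b, Sprr2d, Sprr2f, Sprr2h, Ivl, Tgm1, Cnfn and Asprv1 were highest in that library. The leads of Sprr1b and Sprr2h rested on 8 and 4 reads. Sprr1a and Sprr3 were highest in untreated replicate 2. CNV replicate 3 had 16.1 FPKM of epidermis markers with Sprr2f at 21.6 FPKM. Within CNV the 2 had the same order, with sums of 48.6 and 29.4 FPKM and Sprr2f at 80.3 and 77.7 FPKM in replicates 2 and 1. Neutrophil markers, led by S100a8 and S100a9, which epithelium can also express, summed to 16.5 to 125 FPKM in BetP-Gel@Ran, 328 to 783 FPKM in CNV and 25.2 to 39.1 FPKM in untreated libraries. The BetP-Gel@Ran maximum was again replicate 3, and Mpo was at 0 in every library. The part of these cells in the member values was not tested.

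The stretch from Sprr2d to Ivl held 14 protein-coding genes of the table, 7 of them members. BetP-Gel@Ran replicate 3 was the highest library for 8 of the 14, CNV replicate 1 for 3, CNV replicate 2 for 2 and untreated replicate 3 for 1. Sprr2i, a neighbour that is no member, had 3.63 FPKM in BetP-Gel@Ran replicate 3 and 0 in the 8 other libraries. Sprr4 was at 1.98, 5.28 and 9.43 FPKM in BetP-Gel@Ran, 0, 0.247 and 0.696 FPKM in CNV and 4.08, 0 and 0 FPKM in untreated libraries, so its order of groups differed from that of Sprr1a next to it. Both neighbours were picked for mention after their values were seen.

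**Figure D4:**
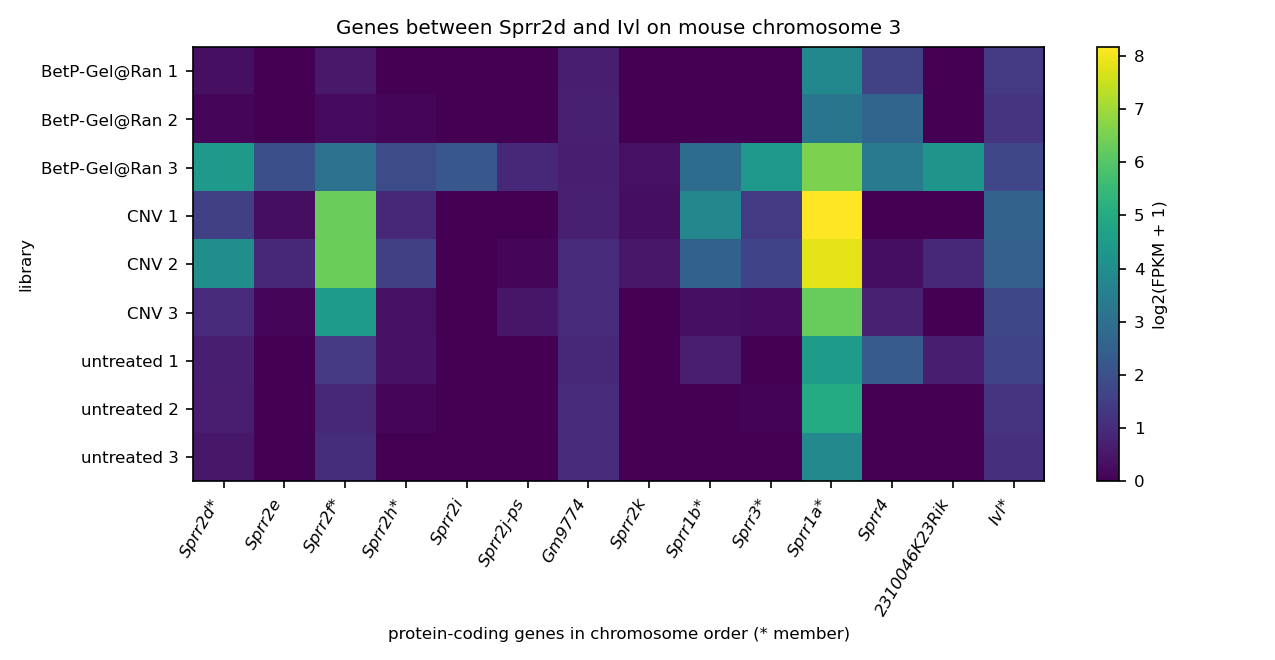
Colour shows log2(FPKM + 1) for the 14 protein-coding genes from Sprr2d to Ivl in chromosome order (columns, members starred) in the 9 libraries (rows, BetP-Gel@Ran, CNV and untreated from top to bottom). The row of BetP-Gel@Ran replicate 3 is raised over most columns, being highest for 8 genes, while CNV rows are raised most at Sprr2f and Sprr1a. CNV replicate 1 is also the highest library for Sprr1b and Ivl, at 12.7 and 5.04 FPKM. CNV replicate 2 is raised at Sprr2d, at 15.5 FPKM, against 20.2 FPKM in BetP-Gel@Ran replicate 3.

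Of the tested genes outside the set, those most like the members' mean profile over the 9 libraries were Dmkn at r = 0.95, Klk13 at 0.95, Fam57a at 0.93, Sbsn at 0.92, Rpl15-ps3 at 0.92, Ttc27 at 0.90, Tmem54 at 0.89 and Spink5 at 0.89, with no test. Dmkn was at 1.85, 0.455 and 13.0 FPKM in BetP-Gel@Ran, 8.40, 8.76 and 1.32 FPKM in CNV and 3.28, 0.951 and 0.594 FPKM in untreated libraries. Klk13, a kallikrein protease, was at 0.0497, 0.0241 and 5.20 FPKM, 5.95, 4.52 and 0.187 FPKM and 0.641, 0.907 and 0.243 FPKM in the same order of groups.

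Other genes of the same programme were tested with limma over all 14086 genes, with adjusted p under 0.05 as the threshold. In CNV against untreated, 44.6% of all tested genes were called, 22.5% higher and 22.1% lower. When each library was scaled to its own total, the higher share of all calls was 62.3% in place of 50.4%. Of 46 other cornified envelope proteins, 16 were tested, 3 rose and 4 fell in CNV, and leaving out single libraries gave 2 to 3 and 1 to 4, with 1 lower without untreated replicate 1, CNV replicate 1 or CNV replicate 2 and 2 lower without untreated replicate 2 or CNV replicate 3. Lce3a, a late envelope gene, fell to 11.4, 6.02 and 10.7 FPKM in CNV, against 83.5, 71.9 and 69.2 FPKM in untreated libraries, a log2 difference of -2.91 ± 0.23 (limma adjusted p = 2.52e-05). Sprr2a3 rose to 10.9, 11.1 and 2.34 FPKM in CNV, against 0, 0.117 and 0 FPKM (limma adjusted p = 0.00176, and 0.124 with voom on recovered reads), but it shares reads with near-identical Sprr2a copies and is uncertain. Sprr2g rose by 1.70 ± 0.45 (limma adjusted p = 0.0150), a call lost without CNV replicate 2 at an adjusted p of 0.0511. In all, the Sprr2g call was lost under 2 of 18 alternatives, with a limma adjusted p of up to 0.262. The cystatin Csta1 rose by 0.50 ± 0.08 (limma adjusted p = 0.00119). The 7 calls were 43.75% of the 16 tested, close to the share of all tested genes.

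Among 28 enzymes of cross-linking, proteolysis and barrier lipids, 18 were tested, 2 rose and 6 fell in CNV, with 1 to 3 and 5 to 7 when single libraries were left out, the 1 without untreated replicate 3 or CNV replicate 1. Ugcg, which makes glucosylceramide, rose by 0.94 ± 0.14 (limma adjusted p = 6.08e-04). The kallikrein Klk11 fell to 10.9 ± 1.71 FPKM in CNV, against 22.0 ± 3.52 FPKM in untreated libraries (SD, n = 3; limma adjusted p = 6.96e-04). The fatty acid elongase Elovl4, which retina also expresses, fell by 0.55 in log2 units, and the sphingomyelinase Smpd1 fell by 0.59 (limma adjusted p = 0.00153 and 0.00279).

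Of 21 epithelial keratins, 18 were tested, 7 rose and 5 fell in CNV, with 6 to 8 and 2 to 5 when single libraries were left out, the lower count being 2 without untreated replicate 1 and 3 without CNV replicate 1. Krt5, the basal keratin, fell to 3087 ± 218 FPKM in CNV, against 5839 ± 462 FPKM in untreated libraries (limma adjusted p = 4.89e-04). Krt23 rose by 0.92 ± 0.10 (limma adjusted p = 1.03e-04), and the simple-epithelial keratins Krt8 and Krt18 rose by 0.87 ± 0.17 and 0.64 ± 0.11 (limma adjusted p = 0.00254 and 0.00129). Outside the naming rule, and chosen after its values were seen, Krt14, another basal keratin, rose to 1869, 2252 and 553 FPKM in CNV, against 282, 316 and 286 FPKM (limma adjusted p = 0.00716). Krt14 and Krt5, which form filaments together, thus moved in opposite directions.

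All 19 listed junction genes were tested. In CNV 1 rose and 8 fell, with 6 to 8 lower when single libraries were left out. The higher count was 2 without CNV replicate 2, 3 without CNV replicate 3 and 4 under quantile normalization. Epcam, an adhesion molecule of simple epithelium, rose to 33.0 ± 5.97 FPKM in CNV, against 14.3 ± 1.54 FPKM in untreated libraries (limma adjusted p = 2.86e-04). The desmosomal genes Perp and Jup fell by 0.78 and 0.66 in log2 units (limma adjusted p = 5.16e-04 and 6.22e-04), and the connexin Gjb6 fell by 0.48 (limma adjusted p = 0.00314).

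All 27 listed transcription factors of squamous differentiation were tested, and in CNV 8 rose and 2 fell, with 8 to 10 higher when single libraries were left out. The lower count was 4 without CNV replicate 3 and 1 without untreated replicates 1 or 2 or CNV replicates 1 or 2. The AP-1 subunit Fosl1 rose to 6.86, 3.20 and 3.08 FPKM in CNV, against 0.725, 0.660 and 0.690 FPKM in untreated libraries (limma adjusted p = 5.75e-04). Fosb and Jun, also AP-1 subunits, rose by 1.52 ± 0.15 and 0.97 ± 0.13 (limma adjusted p = 7.52e-05 and 4.53e-04). Of 33 genes of epithelial stress and repair, 27 were tested, 11 rose and 3 fell, with 7 to 11 and 3 to 5 when single libraries were left out, the 7 without untreated replicate 2, untreated replicate 3 or CNV replicate 2 and the 5 without CNV replicate 3. Il24, a cytokine, was at 1.97, 2.06 and 3.17 FPKM in CNV libraries and at 0 in all untreated libraries (limma adjusted p = 2.87e-05). Il1rn, the interleukin 1 receptor antagonist, rose to 16.5 ± 4.58 FPKM in CNV, against 3.04 ± 0.288 FPKM (limma adjusted p = 5.33e-05). The plasminogen activator genes Plau and Plaur, enzyme and receptor, rose by 1.51 ± 0.17 and 2.24 ± 0.25 (limma adjusted p = 1.66e-04 and 1.63e-04). Neutrophils and macrophages also express Il1rn and Plaur, and the neutrophil markers given above were higher in CNV, whose part was not tested. The median log2 difference in CNV against untreated was 0.11 over other envelope proteins, -0.15 over enzymes, 0.01 over keratins, -0.15 over junction genes, 0.14 over transcription factors and 0.38 over stress genes, against 0.01 over all tested genes.

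In BetP-Gel@Ran against CNV, 14.1% of all tested genes were called, 5.81% higher and 8.27% lower. Calls in this comparison leaned on single libraries: of the 125 tested listed genes outside the set, 15 rose and 21 fell, against 2 and 9 without CNV replicate 1, 3 and 9 without CNV replicate 2, 27 and 29 without CNV replicate 3, and 3 and 9 without BetP-Gel@Ran replicate 2. The higher count was also 3 without BetP-Gel@Ran replicate 1, 2 without BetP-Gel@Ran replicate 3 and 8 without untreated replicate 2. With lens markers as a covariate the counts were 0 and 1. Lens markers summed to 109 to 219 FPKM in CNV and 1384 to 4859 FPKM in BetP-Gel@Ran libraries. The covariate thus follows the groups, and its effect cannot be told apart from the group difference. The calls below held when any 1 library was left out. With the lens covariate Krt18 was still called (limma adjusted p = 0.0489), and the others were not. Fosl1 fell to 0.602, 0.617 and 1.10 FPKM in BetP-Gel@Ran libraries, against the CNV values above (log2 difference -1.54 ± 0.23, limma adjusted p = 0.00733). Il24 was at 0 in all BetP-Gel@Ran libraries (limma adjusted p = 5.35e-04). Il1rn fell to 5.03 ± 0.920 FPKM (limma adjusted p = 0.00418), Plaur to 1.14 ± 0.387 FPKM (limma adjusted p = 0.00609) and the growth factor Areg to 4.83 ± 0.950 FPKM, against 11.5 ± 2.67 FPKM in CNV (limma adjusted p = 0.00750). Krt18 and Krt23 fell by 1.09 and 0.60 in log2 units (limma adjusted p = 0.00111 and 0.00889), and Epcam fell by 0.86 (limma adjusted p = 0.0102). Desmoplakin (Dsp), the desmosomal plaque protein, rose by 0.53 ± 0.10 (limma adjusted p = 0.0132).

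By list, 3 of 16 other envelope proteins (1 up, 2 down), 2 of 18 enzymes (1 up, 1 down), 9 of 18 keratins (2 up, 7 down), 5 of 19 junction genes (4 up, 1 down), 7 of 27 transcription factors (5 up, 2 down) and 10 of 27 stress genes (2 up, 8 down) were called in BetP-Gel@Ran against CNV. Their medians were 0.35, -0.02, -0.23, 0.10, 0.23 and -0.49 on the log2 scale, with 0.00 over all tested genes. Every one of these 12 counts moved by over 1.5 times with at least 1 library left out. The 7 lower keratins became 2 without CNV replicate 1, CNV replicate 2 or BetP-Gel@Ran replicate 2 and 4 without BetP-Gel@Ran replicate 3, and the 8 lower stress genes became 5 without CNV replicate 1, CNV replicate 2 or BetP-Gel@Ran replicate 2. The 5 higher transcription factors became 10 without CNV replicate 3 and 0 without any 1 of CNV replicates 1 and 2 and the BetP-Gel@Ran libraries.

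In BetP-Gel@Ran against untreated, 34.2% of all tested genes were called, 16.1% higher and 18.1% lower, and the higher share of all calls was 58.8% in place of 47.1% with each library scaled to its own total. Transcription factors of squamous differentiation stood at 16 higher and 0 lower of 27, with 13 to 17 higher and, without CNV replicate 2 or 3, 1 lower when single libraries were left out. Klf5, a factor of basal and corneal epithelium, rose to 38.4, 36.4 and 37.2 FPKM in BetP-Gel@Ran, against 28.2, 24.9 and 22.3 FPKM in untreated libraries (limma adjusted p = 0.00507). Ovol1, which limits proliferation of epidermal progenitors, rose by 0.85 ± 0.16, and Fosb rose by 1.08 ± 0.15 (limma adjusted p = 0.00400 and 9.90e-04). Fosl1 was not called, with a log2 difference of 0.06.

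The median log2 difference was 0.38 over transcription factors, 0.37 over other envelope proteins, -0.23 over enzymes, -0.16 over keratins, -0.10 over junction genes and -0.13 over stress genes, against -0.01 over all tested genes. All listed genes together stood at 28 higher and 17 lower, and at 31 and 11 under quantile normalization. Of the other envelope proteins 3 rose and 1 fell, with 0 to 4 and 1 to 3 when single libraries were left out, and 0 rose without BetP-Gel@Ran replicate 3 or untreated replicates 2 or 3, 1 rose without CNV replicate 1 or BetP-Gel@Ran replicate 1, and 3 fell without BetP-Gel@Ran replicate 3. Lce3a fell to 10.5, 10.2 and 15.8 FPKM in BetP-Gel@Ran libraries, a log2 difference of -2.55 ± 0.23 from untreated (limma adjusted p = 1.04e-04), so it was low in BetP-Gel@Ran and CNV alike. Of the enzymes 2 rose and 5 fell, among them the membrane protease Prss8, which rose to 97.3 ± 5.56 FPKM, against 54.7 ± 2.26 FPKM (limma adjusted p = 0.00736), and the transglutaminase Tgm5, which fell by 0.44 (limma adjusted p = 0.00844). Klk11 and Smpd1 fell by 0.71 and 0.57 (limma adjusted p = 0.00504 and 0.00514). Of the keratins 3 rose and 4 fell, and Krt6a, a keratin of activated epithelium, fell to 695 ± 88.3 FPKM, against 1007 ± 71.4 FPKM (limma adjusted p = 0.0101). Of the junction genes 1 rose, Dsp, by 0.72 ± 0.10 (limma adjusted p = 9.10e-04), and 5 fell, of which Cldn1 fell by 0.57 (limma adjusted p = 0.0133). Of the stress genes 3 rose and 2 fell, and the epidermal growth factor receptor ligands Hbegf and Tgfa rose by 0.67 ± 0.14 and 0.46 ± 0.09 (limma adjusted p = 0.00548 and 0.00620). When single libraries were left out, the higher and lower counts ranged over 1 to 2 and 3 to 7 for enzymes, 0 to 3 and 2 to 5 for keratins, 1 to 2 and 1 to 5 for junction genes and 2 to 4 and 0 to 4 for stress genes. The 5 lower junction genes became 1 without untreated replicate 1, untreated replicate 3, BetP-Gel@Ran replicate 2 or BetP-Gel@Ran replicate 3, and 3 without untreated replicate 2. The 5 lower enzymes became 3 without untreated replicate 2, the 4 lower keratins 2 without BetP-Gel@Ran replicate 2 or any 1 untreated library, and the 3 higher keratins 0 without untreated replicates 1 or 2 or BetP-Gel@Ran replicates 1 or 3.

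**Figure D5:**
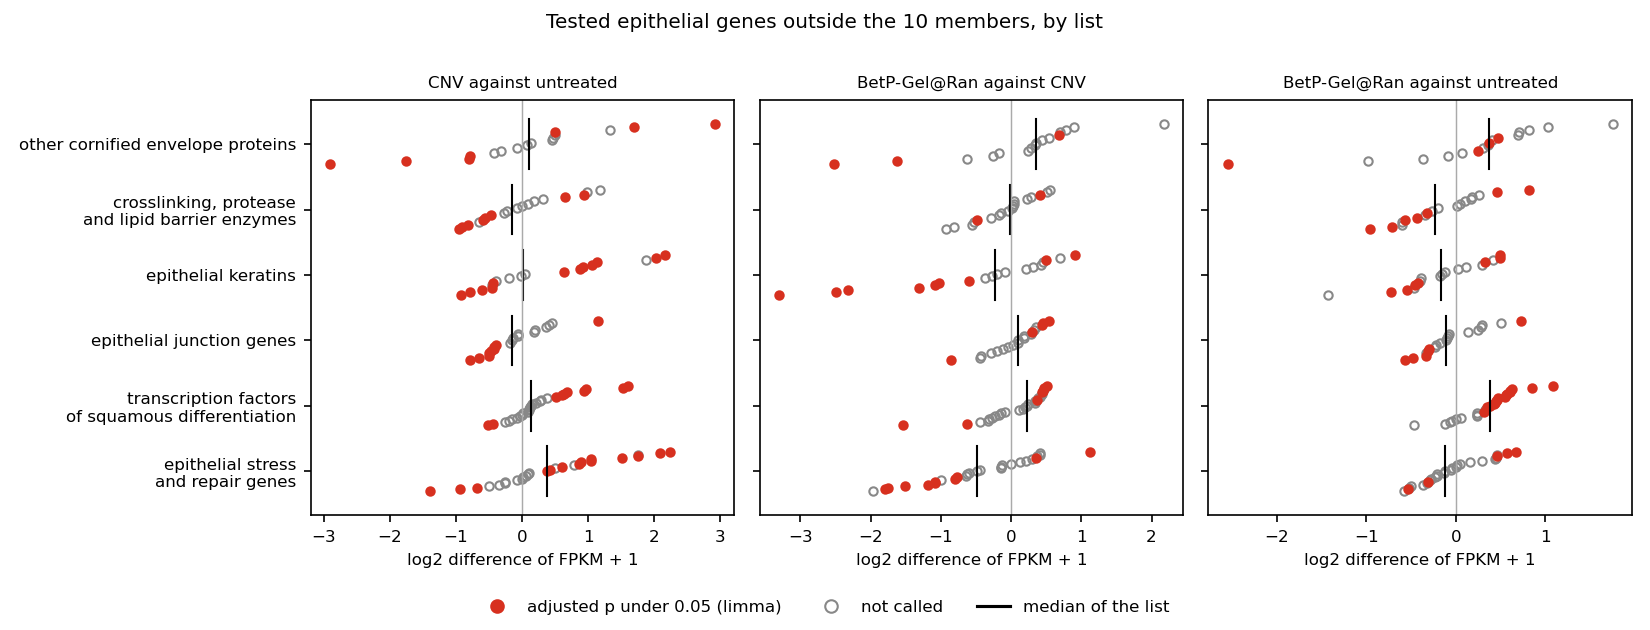
Log2 difference of FPKM + 1 for each tested listed gene outside the 10 members, by list, in the 3 comparisons, with filled red points for limma adjusted p under 0.05, open points for the rest and a black line at each list's median. In BetP-Gel@Ran against untreated, 16 of 27 transcription factors are red and to the right of 0.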

How the data were processed

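The authors deposited 1 table of FPKM for 54532 mouse genes in 9 libraries, with gene lengths and mm10 coordinates. Per the labels, poly-A RNA was prepared with a NEBNext kit that keeps no strand, so a gene and an overlapping antisense gene share reads here. Per the submitters' processing notes, HTSeq 0.6.0 was among the tools, whereas no aligner is named in the sources used here. Deposited FPKM multiplied by length gave whole reads for 100% of values (tolerance 0.05). The members and gene lists were chosen with earlier results of these data known.

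The 14086 genes that reached 1 FPKM in at least 3 of 9 libraries entered the test. limma 3.58.1 in R 4.3.3 was run on log2(FPKM + 1) (statmod 1.5.0, trend and robust options), 1 mean per group, two-sided, with Benjamini-Hochberg adjustment over all tested genes and a threshold of 0.05, and the fit was tested on simulated data. Members were given no test. Named genes were the members, up to 4 called genes per list and comparison with the smallest p, and the 8 genes most like the members' mean profile. Some genes that the rule names are not reported here. An exact test of 3 against 3 libraries cannot go below p = 0.10. Promoters and motif shares came from RefSeq sequences on GRCm38.p6, and all 10 members had a window.

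Alternatives were 0.1 as pseudocount, dropping the filter, 5 FPKM as filter, normalization by quantiles, scaling to each library's own total, limma voom on recovered reads, a fit of 2 groups only, no trend or robust options, the replicate number as a block, lens markers as a covariate and each library left out.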

Additional observations from a re-analysis of the deposited data

How the results depend on the processing

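No named gene changed direction while called, and 175 of 1297 adjusted p-values of named genes under the alternatives missed the threshold. For CNV against untreated, the members' median log2 difference of 1.01 became 2.27 with a pseudocount of 0.1, 2.60 with limma voom on recovered reads and 0.34 with lens markers as a covariate. All-gene calls became 1735 higher with a filter of 5 FPKM, and 1216 higher and 1692 lower with the lens covariate, which left 13 listed genes higher and 14 lower. For BetP-Gel@Ran against CNV, no filter gave 263 higher and 590 lower genes (3 and 13 listed), the 2 groups alone 537 and 652 (8 listed higher), the lens covariate 1 and 5 (0 and 1 listed), and voom 23 listed higher. The members' median there, -0.42, became -1.20 with a pseudocount of 0.1, -1.82 with voom and 0.16 with the lens covariate, a change of sign. For BetP-Gel@Ran against untreated, no filter gave 18 and 11 listed genes, the filter of 5 FPKM 1337 genes higher and quantile normalization 11 listed lower. Over the 3 comparisons voom gave 6493, 2449 and 5018 calls, sharing 6105, 1860 and 4604 with the test on FPKM. Lens markers summed to 109 to 219 FPKM in CNV libraries and to 1025 FPKM or more in all others. The lens covariate thus follows both comparisons with CNV, and its effect there cannot be told apart from the group difference. The cause of the changes under these alternatives was not tested.

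When single libraries were left out, CNV against untreated gave 2593 to 3127 genes higher, 2513 to 3075 lower, 26 to 35 and 19 to 29 listed, and a member median of 0.72 to 1.34. BetP-Gel@Ran against CNV gave 126 to 1457, 320 to 1758, 2 to 27 and 9 to 29, and -1.04 to -0.02. All-gene counts there were 126 and 320 without CNV replicate 1, 129 and 335 without CNV replicate 2, 1457 and 1758 without CNV replicate 3, 146 and 320 without BetP-Gel@Ran replicate 2, 182 and 468 without BetP-Gel@Ran replicate 3, and 363 higher without BetP-Gel@Ran replicate 1. BetP-Gel@Ran against untreated gave 1438 to 2482, 1760 to 2647, 18 to 30 and 8 to 20, and -0.23 to 0.71, with 1438 higher without BetP-Gel@Ran replicate 3. The 17 listed lower genes became 8, 10 and 9 without untreated replicates 1, 2 and 3, and 9 without BetP-Gel@Ran replicate 2. The 28 listed higher genes became 18 without untreated replicate 2 or BetP-Gel@Ran replicate 3.

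Samples that share a replicate number did not visibly deviate together, with r of -0.15 to 0.08 over 9 pairs. Pairs with unlike numbers had r of -0.19 to 0.17 over 18 pairs. Correlations over all tested genes cannot exclude a pairing whose effect is small or limited to few genes. With the replicate number as a block, BetP-Gel@Ran against CNV gave 523 genes higher and 6 listed higher, and total calls were 6048, 1398 and 4467 over the 3 comparisons. No other count over all or listed genes moved by over 1.5 times.

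Depth limits the low members most: 10 of the library values of Sprr1b, Sprr2h and Sprr3 were 0 reads, and 3 reads there would be 0.136 to 0.247 FPKM. With 3 libraries a group, and no record of separate animals, the errors hold for these libraries only. The groups also differ in corneal, retinal and lens markers, and the part of tissue makeup in the member values was not tested. Sprr2a, Lce1 and Stfa genes have near-identical copies, so their values are uncertain.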
